A study of Mus musculus with 4 samples.

Results

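Bone morphogenetic proteins (BMPs) are secreted ligands of the TGFβ superfamily that bind pairs of serine/threonine kinase receptors. The active receptor phosphorylates SMAD1, SMAD5 and SMAD9, which enter the nucleus with SMAD4 and raise transcription of the ID genes and of the inhibitory SMADs. ID proteins lack a DNA-binding domain and hold basic helix-loop-helix factors inactive, whereas SMAD6 and SMAD7 act back on the receptors, so that the transcripts of these genes are commonly read as a sign of BMP signaling in endothelium. In lymphatic endothelium, BMP9 acting through the receptor ALK1 is known to lower Prox1, and in zebrafish Bmp2 limits the emergence of LECs. Here 5 ligand genes, Bmp2, Bmp4, Bmp5, Bmp6 and Bmp7, and 5 target genes, Id1, Id2, Id3, Smad6 and Smad7, were followed in mouse lymphatic endothelial cells (LECs). They were taken by symbol, 10 of the 55385 genes in the table, and all 10 passed the filter on low values that left 19479 genes for testing.

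LECs were sorted as CD45− PDPN+ CD31+ cells from mouse embryos at embryonic stage E13.5, out of trunk tissue from which inner organs, limbs, tail and the head above the tongue had been taken off. Polyadenylated RNA was sequenced in 4 libraries, 2 labelled Osr1GCE/GCE (Osr1-KO in the deposited labels) and 2 of Osr1controls, and each library pooled cells of 8 to 10 embryos. The GCE allele places an EGFP and CreERT2 cassette at Osr1, a zinc finger transcription factor gene of mesenchymal cells, and it is carried in the whole embryo. Osr1controls are Osr1+/+ and Osr1GCE/+ embryos by the study's description and wild type by the deposited labels, so that some control embryos may carry 1 copy of the allele, in a number not given in the sources used here. Replicates were separate pools, and p-values set a difference against the spread between these pools. In the main test, limma, this spread is moderated. The SE, interval and p-value of a gene thus also draw on the spread of the other genes tested. With 2 against 2 libraries an exact permutation test cannot go below p = 0.3333.

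The libraries labelled Osr1GCE/GCE held 37865172 and 31586765 reads in genes, against 53438492 and 36535451 in Osr1controls. Osr1 itself had 168 and 303 normalized counts in the libraries labelled Osr1GCE/GCE, against 32.8 and 30.4 in Osr1controls (log2 fold change 2.80, adjusted p = 0.026, limma). The targeted gene thus went against a loss of its transcript, and counts per gene do not show which exons the reads came from. For this reason the first group is called by its label and not as a knockout. Levels are given in TPM, the transcript level per exon length, scaled to an equal sum in each library. Of the LEC markers, Prox1, Flt4, Lyve1, Pdpn, Mmrn1 and Reln were well expressed. Ccl21a was at or below 0.235 TPM in all 4 libraries. The study found Ccl21 enriched in its sorted E13.5 LECs by RT-qPCR, so the low Ccl21a count need not mean absent expression. Its reason was not tested. The haematopoietic marker Ptprc, which encodes CD45, reached no more than 0.362 TPM. Other haematopoietic markers were higher, with means over the 4 libraries of 7.33 TPM for Csf1r, 32.6 TPM for Cd68, 373 TPM for Hba-a1 and 415 TPM for Hbb-bs.

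The 5 target genes were transcribed at much higher levels per length than the 5 ligand genes, with the exception of Smad6. Id1 averaged 567 TPM over the 4 libraries and Id3 535 TPM, which placed them 195th and 210th of the 19479 genes tested. Id2 followed with 250 TPM and Smad7 with 129 TPM. Bmp2 averaged 31.3 TPM, Smad6 29.0 TPM and Bmp4 24.4 TPM. Bmp7 reached 16.4 TPM, Bmp5 15.9 TPM and Bmp6 4.34 TPM. In this order the ranges over the 4 libraries overlapped between Id1 and Id3, Bmp2 and Smad6, Smad6 and Bmp4, and Bmp7 and Bmp5, so that these neighbors did not differ beyond their spread, whereas the other 5 pairs of neighbors kept their order in all 4 libraries. Id4, the fourth ID gene, contributed 1.77% and 2.21% of the summed ID TPM in the libraries labelled Osr1GCE/GCE, against 2.80% and 1.91% in Osr1controls. The ID transcripts in the sorted pools of both groups were therefore mainly those of Id1, Id3 and Id2. Which cells of the pools carried them was not tested.

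**Figure D1:**
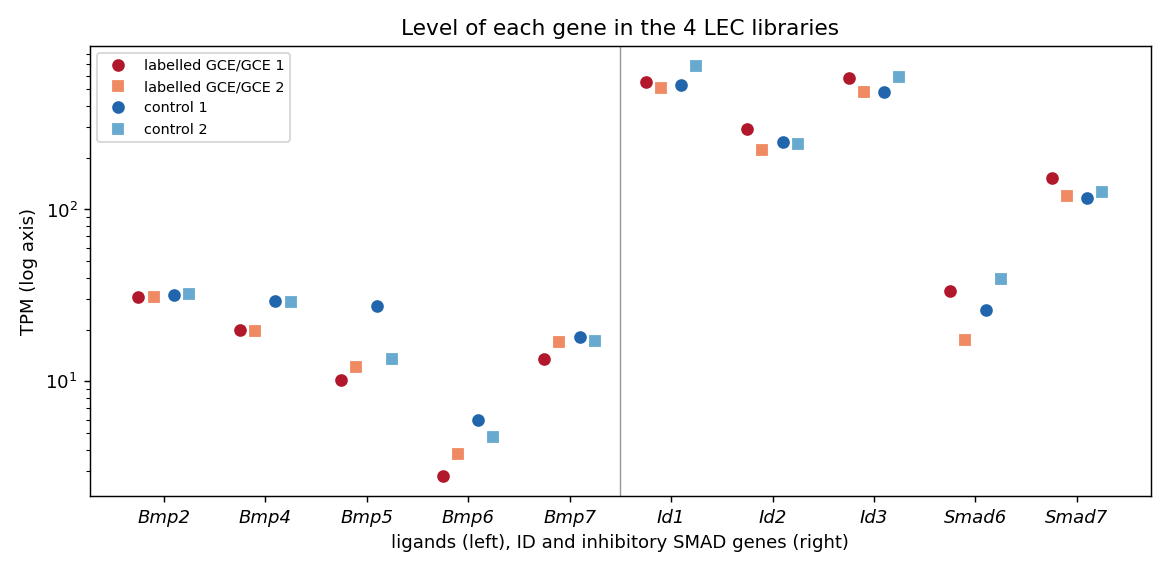
Level of the 5 BMP ligand genes and the 5 target genes in TPM (log axis) in each library, with libraries labelled Osr1GCE/GCE (red and orange) left of Osr1controls (dark and light blue). Id1 and Id3 were the highest, with means of 567 and 535 TPM. Bmp6 was the lowest, with 2.83 and 3.78 TPM in the libraries labelled Osr1GCE/GCE, against 5.97 and 4.78 TPM in Osr1controls. In TPM the groups of all 5 target genes overlapped.

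Promoter sequences were looked at because ID genes and inhibitory SMAD genes respond to SMADs. RefSeq promoter entries (GRCm38.p6, 250 bases before to 50 after the annotated start) were found for 6 of the 10 genes, namely Bmp4, Bmp5, Bmp6, Id2, Id3 and Smad6. They were searched on both strands for GGCGCC, a GC-rich element bound by BMP-type SMADs, for the palindrome GTCTAGAC, and for the shorter SMAD box CAGAC, whose complement GTCTG does not occur inside the palindrome. The windows that hold the matches in Smad6 and Id2 are shown 5′ to 3′ on the gene's strand, with the matched letters in capitals.
Smad6, chr9:64022040-64022159, minus strand, 100 bases before to 20 after the start: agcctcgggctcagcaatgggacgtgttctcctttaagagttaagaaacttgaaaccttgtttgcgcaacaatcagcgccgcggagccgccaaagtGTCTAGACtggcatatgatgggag
Id2, chr12:25096263-25096342, minus strand, 80 bases at the far end of the entry: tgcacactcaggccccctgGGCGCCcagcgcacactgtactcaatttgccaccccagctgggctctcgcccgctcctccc
For Smad6 the RefSeq start is also the gene's start in GENCODE. For Id2 GENCODE has a longer transcript, and the window lies in an intron of it with 0 exon bases. For Id3 GENCODE places the start before the RefSeq entry's matches, within what it annotates as untranslated exon, and no window is shown. For Bmp6 the GENCODE gene starts at 38345107, before the entry's first base at 38345466, so that any match in this entry lies inside the annotated gene. GTCTAGAC was in the Smad6 entry, starting 4 bases before the annotated start, and in 0.213% of all 32851 promoter entries. GGCGCC was in the Id2 entry alone among the 6, and in 11.9% of all entries. CAGAC was in the entries of Bmp5, Bmp6 and Id3, with 2 matches in that of Id3, and in 49.6% of all entries. The Bmp4 entry held none of the 3. These matches describe letters and not bound sites.

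Between the groups, none of the 10 genes was called by limma, against 2.89% of all genes tested (1.13% higher and 1.75% lower in the libraries labelled Osr1GCE/GCE). A gene was called where the log2 fold change was 0.3 or more in either direction, the p adjusted by Benjamini-Hochberg over all genes tested was under 0.05, and the mean TPM was over 1. At an unadjusted p under 0.05 there were 2 of 10, Bmp4 and Bmp6, both lower, against 21.4% of all genes. On recovered whole reads edgeR called 0 of the 10 and DESeq2 called 1, Bmp4, against 7.88% of all genes by DESeq2. In normalized counts the 2 groups did not overlap for 5 of the 10 genes, Bmp2, Bmp4, Bmp5, Bmp6 and Smad7. The share of all genes was 53.6%, so this share was close to the background. In TPM the groups of Smad7 overlapped, and those of Bmp2 were apart in the opposite direction. The median log2 fold change was -0.47 over the 5 ligands and 0.07 over the 5 targets, against -0.02 over all genes tested.

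**Figure D2:**
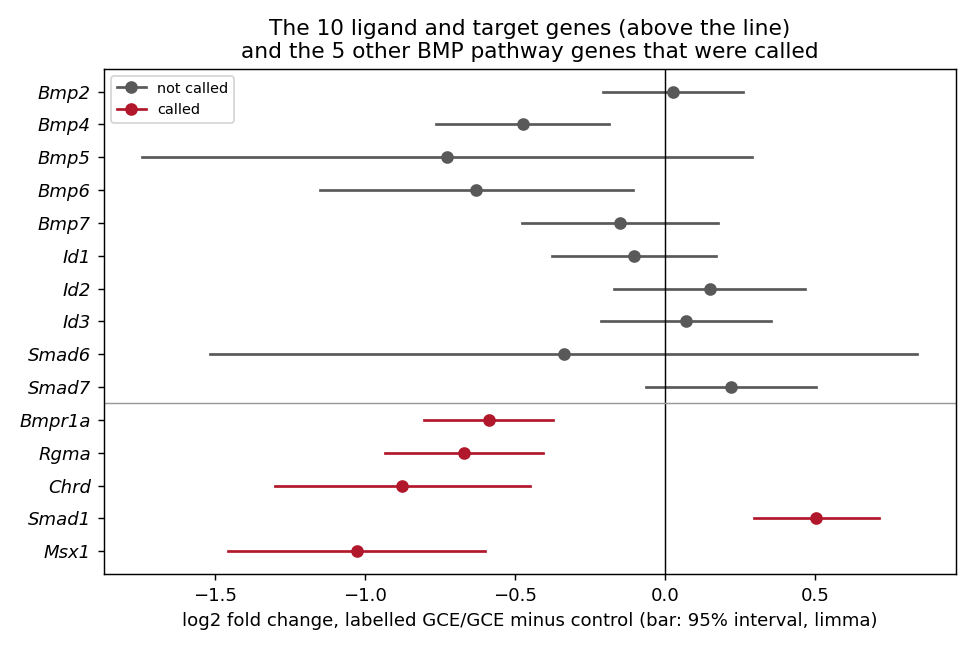
Log2 fold change of normalized counts, libraries labelled Osr1GCE/GCE minus Osr1controls, with the 95% interval of the limma fit (bars), for the 10 ligand and target genes and for the 5 other BMP pathway genes that were called (red). The intervals of Bmp4 and Bmp6 lay below 0 without passing the adjusted threshold, and those of Bmp5 and Smad6 were the widest of the 15.

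Bmp4 encodes a ligand that mesenchyme and endothelium both make in the embryo, and it had the smallest adjusted p of the 10 genes. Bmp4 (chr14:46383520-46390669, minus strand) had 477 and 468 normalized counts in the libraries labelled Osr1GCE/GCE, against 669 and 644 in Osr1controls. Its log2 fold change was -0.47 ± 0.13 (SE, n = 2 each), with a 95% interval of -0.76 to -0.18 and an adjusted p of 0.0827 (limma). Replicates lay within 1.04-fold of each other in either group, and the groups did not overlap. DESeq2 gave an adjusted p of 0.0497 and edgeR 0.0997, so that the call rested on the method.

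Bmp6 is an endothelial ligand best known for its control of hepcidin in the liver. Bmp6 (chr13:38345107-38500302, plus strand) had 117 and 156 normalized counts in the libraries labelled Osr1GCE/GCE, against 237 and 185 in Osr1controls. It was the least abundant of the 10, with 108 and 126 reads in the libraries labelled Osr1GCE/GCE, against 333 and 177 reads in Osr1controls. The log2 fold change was -0.63 ± 0.23 (SE, n = 2 each; 95% interval -1.15 to -0.11; adjusted p = 0.162, limma). The groups did not overlap, but the libraries were not prepared with strand information and Bmp6 overlaps Txndc5, so that its counts are uncertain.

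Bmp5, a ligand of developing cartilage and soft tissue mesenchyme, was set apart by a single library. Bmp5 (chr9:75775364-75900310, plus strand) had 434 and 518 normalized counts in the libraries labelled Osr1GCE/GCE, against 1132 and 543 in Osr1controls. Control replicate 1 stood 2.08-fold above replicate 2, whereas the other 3 libraries lay close together. The log2 fold change was -0.72 ± 0.38 (SE, n = 2 each; 95% interval -1.74 to 0.29; adjusted p = 0.365, limma). Without control replicate 2 it was -1.25 with an adjusted p of 0.00121 and Bmp5 was called, against 7.3% of all genes in that fit. Without control replicate 1 the log2 fold change was -0.20. The 6 mural cell markers summed to 464 TPM in control replicate 1 and 268 TPM in control replicate 2. Of these Rgs5, Cspg4 and Pdgfrb were higher in control replicate 1, Acta2 and Tagln were about equal and Cnn1 was lower, and the part of mural cells in the Bmp5 value was not tested.

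Bmp2 and Bmp7 differed little between the groups. Bmp2, a ligand that endothelium and mesenchyme use in cardiovascular development (chr2:133552159-133562885, plus strand), had 1164 and 1159 normalized counts in the libraries labelled Osr1GCE/GCE, against 1148 and 1131 in Osr1controls. All 4 libraries lay within each other's counting error, and the log2 fold change was 0.03 with a 95% interval of -0.20 to 0.26 (limma adjusted p = 0.908), and -0.04 when reads were scaled by library totals. Bmp7, which encodes a ligand of kidney and mesenchymal development (chr2:172868012-172940321, minus strand), had 577 and 716 normalized counts in the libraries labelled Osr1GCE/GCE, against 744 and 682 in Osr1controls. The groups overlapped, with a log2 fold change of -0.15 (95% interval -0.48 to 0.18, limma adjusted p = 0.595).

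Summed over the 5 genes, ligand transcripts reached 77.2 and 83.3 TPM in the libraries labelled Osr1GCE/GCE, against 113 and 96.3 TPM in Osr1controls. Bmp2 made up 39.9% and 37.0% of that sum in the libraries labelled Osr1GCE/GCE, against 28.1% and 33.3% in Osr1controls. The TPM ratio of Bmp2 to Bmp4 was 1.54 and 1.57 in the libraries labelled Osr1GCE/GCE, against 1.09 and 1.11 in Osr1controls. The share of Bmp2 was thus larger in the libraries labelled Osr1GCE/GCE, at a Bmp2 level that was nearly equal in the 4 libraries.

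Markers of some other cell types were lower in the same libraries as Bmp4 and Bmp6, and those of others were not. The 10 fibroblast and mesenchyme markers summed to 1429 and 1695 TPM in the libraries labelled Osr1GCE/GCE, against 2820 and 2293 TPM in Osr1controls, with 3 of 10 called lower and 9 of 10 not overlapping between groups, against 1.75% and 53.6% of all genes tested. The 6 mural markers summed to 165 and 170 TPM in the libraries labelled Osr1GCE/GCE, against 464 and 268 TPM in Osr1controls, with 2 of 6 called lower, against the same 1.75%. The 6 skeletal muscle markers summed to 128 and 132 TPM in the libraries labelled Osr1GCE/GCE, against 252 and 273 TPM in Osr1controls, with 4 of 6 called lower, again against 1.75%. No defining marker of these 3 lists was at 0. Haematopoietic markers summed to 925 and 591 TPM in the libraries labelled Osr1GCE/GCE, against 1037 and 760 TPM in Osr1controls, and epithelial markers to 81.7 and 200 TPM in the libraries labelled Osr1GCE/GCE, against 240 and 197 TPM in Osr1controls, so that both sums overlapped between groups. All 6 epithelial markers still had a log2 fold change below 0, with a median of -0.65. Krt5 and Krt14 had 60.0 and 44.6 TPM in replicate 2 labelled Osr1GCE/GCE, against 9.11 and 12.3 TPM in replicate 1. Neural and glial markers summed to 96.8 and 124 TPM in the libraries labelled Osr1GCE/GCE, against 183 and 143 TPM in Osr1controls. Mesothelial markers summed to 4.12 and 4.64 TPM in the libraries labelled Osr1GCE/GCE, against 7.14 and 10.9 TPM in Osr1controls. Blood endothelial markers summed to 982 and 891 TPM in the libraries labelled Osr1GCE/GCE, against 899 and 777 TPM in Osr1controls, so that the sums overlapped. Kdr alone had 582 and 557 TPM in the libraries labelled Osr1GCE/GCE, against 416 and 404 TPM in Osr1controls, and was called higher. Of the 7 markers 5 had a log2 fold change below 0, with a median of -0.09, and Gja5 was called lower. LEC markers went the other way from mesenchyme, with 2764 and 2663 TPM in the libraries labelled Osr1GCE/GCE, against 1515 and 2105 TPM in Osr1controls. Of the 6 tested 3, Flt4, Pdpn and Mmrn1, were called higher, against 1.13% of all genes. The 4 pan-endothelial markers also summed higher, to 2315 and 2072 TPM in the libraries labelled Osr1GCE/GCE, against 1823 and 1816 TPM in Osr1controls. All 4 had a log2 fold change above 0, and 1, Tie1, was called higher, against the same 1.13%. The part of other cells in the ligand values was not tested, and in bulk RNA fewer cells of a type and less RNA per cell cannot be told apart.

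**Figure D3:**
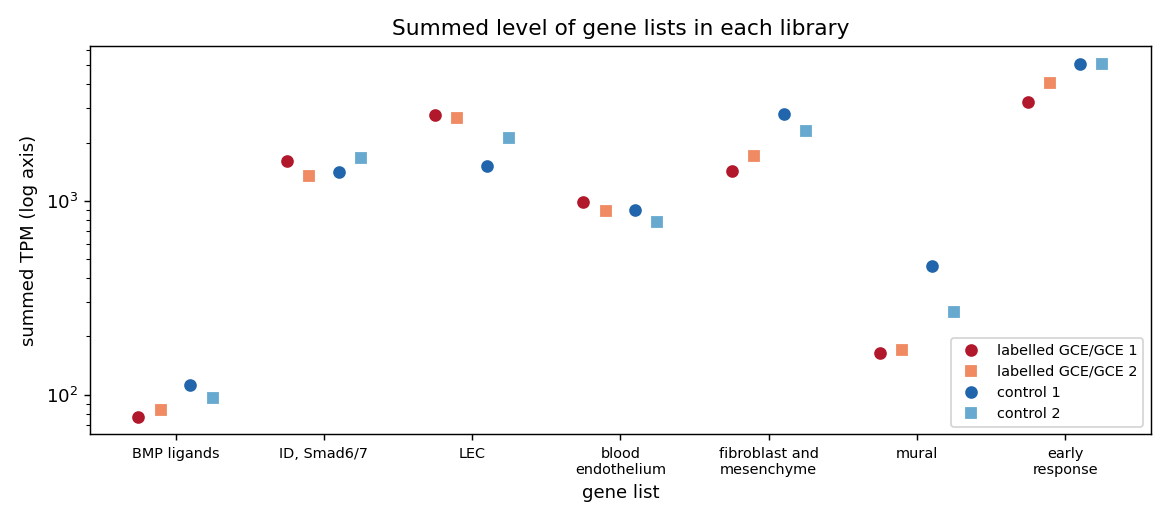
Summed TPM (log axis) of the 5 BMP ligands, the 5 ID and inhibitory SMAD genes and 5 marker lists in each library, with libraries labelled Osr1GCE/GCE left of Osr1controls. Ligands, fibroblast and mesenchyme, mural and early response lists were lower in both libraries labelled Osr1GCE/GCE than in either control, LEC markers were higher, and the ID and Smad6/7 sum overlapped between groups.

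The ID genes did not separate the groups. Id1 (chr2:152736251-152737410, plus strand) had 6787 and 6246 normalized counts in the libraries labelled Osr1GCE/GCE, against 6245 and 7829 in Osr1controls. Id3 (chr4:136143497-136145755, plus strand) had 11134 and 9147 in the libraries labelled Osr1GCE/GCE, against 8843 and 10434 in Osr1controls. Id2 (chr12:25093799-25097140, minus strand) had 7633 and 5683 in the libraries labelled Osr1GCE/GCE, against 6091 and 5793 in Osr1controls. For each of these inhibitors of basic helix-loop-helix factors the 2 groups overlapped, with replicates of a group up to 1.34-fold apart. The log2 fold change was -0.10 for Id1 (95% interval -0.38 to 0.17, limma adjusted p = 0.666). It was 0.07 for Id3 (-0.21 to 0.36, limma adjusted p = 0.790), and -0.0010 under scaling by library totals. It was 0.15 for Id2 (-0.17 to 0.47, limma adjusted p = 0.579). Over the 3 genes the intervals reached down to -0.38 and up to 0.47 on the log2 scale. With 2 libraries a group, a difference within a gene's own interval was compatible with its values.

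The shares of the ID transcripts were likewise similar. Id1 made up 37.8% and 41.1% of the summed ID TPM in the libraries labelled Osr1GCE/GCE, against 40.8% and 44.3% in Osr1controls. Id3 made up 40.2% and 38.9% in the libraries labelled Osr1GCE/GCE, against 37.4% and 38.2% in Osr1controls, and Id2 made up 20.2% and 17.8% in the libraries labelled Osr1GCE/GCE, against 18.9% and 15.6% in Osr1controls. Id1 and Id3 thus formed the larger part of the ID pool in each library.

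Smad6, which encodes the inhibitory SMAD that acts mainly on BMP receptors, was the most variable of the targets. Smad6 (chr9:63953076-64022059, minus strand) had 1137 and 587 normalized counts in the libraries labelled Osr1GCE/GCE, against 853 and 1250 in Osr1controls. Replicates differed 1.94-fold and 1.46-fold within the groups, and the groups overlapped. The exact Poisson 95% intervals of the replicates, 1069 to 1208 and 535 to 642 normalized counts in the libraries labelled Osr1GCE/GCE, against 806 to 903 and 1180 to 1323 in Osr1controls, were well apart, so that counting error was not the limit (such intervals cover counting error only). The log2 fold change was -0.34 ± 0.41 (SE, n = 2 each; 95% interval -1.51 to 0.84; adjusted p = 0.704, limma) and it turned to 0.14 without replicate 2 labelled Osr1GCE/GCE.

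Smad7, the inhibitory SMAD that acts on both TGFβ and BMP receptors, was expressed more evenly. Smad7 (chromosome 18) had 7295 and 5704 normalized counts in the libraries labelled Osr1GCE/GCE, against 5374 and 5693 in Osr1controls. The groups were only just apart in normalized counts. They overlapped in TPM, with 152 and 119 in the libraries labelled Osr1GCE/GCE, against 117 and 127 in Osr1controls. The log2 fold change was 0.22 ± 0.12 (SE, n = 2 each; 95% interval -0.06 to 0.51; adjusted p = 0.345, limma). The TPM ratio of Smad7 to Smad6 was 4.55 and 6.89 in the libraries labelled Osr1GCE/GCE, against 4.47 and 3.23 in Osr1controls, which mainly followed Smad6.

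The target genes varied together between replicates rather than between groups. All 5 were higher in replicate 1 than in replicate 2 of the libraries labelled Osr1GCE/GCE, and 4 of 5 were higher in replicate 2 than in replicate 1 of Osr1controls, with Id2 as the exception. Both held for 4 of the 5 targets, Id1, Id3, Smad6 and Smad7, against 30.5% of all genes tested. Both held for 14 of the 48 other BMP pathway genes tested, for 0 of the 5 ligands and for 0 of the 7 early response genes. Both also held for the LEC markers Prox1, Flt4, Lyve1 and Reln, though not for Pdpn and Mmrn1. The pattern was therefore not particular to the targets. As the replicate numbers name separate pools, the targets share 1 library of each group in which they were higher, and this is a description with no test. Among other BMP pathway genes, the pair Nog, a secreted BMP antagonist, and Atoh8, a helix-loop-helix factor gene that responds to BMP in endothelium, were picked after their values were seen because their replicates were about as far apart as those of Smad6. Nog had 2344 and 1187 normalized counts in the libraries labelled Osr1GCE/GCE, against 1046 and 1675 in Osr1controls. Atoh8 had 1370 and 772 in the libraries labelled Osr1GCE/GCE, against 677 and 1047 in Osr1controls. Both had the same library high in each group as Smad6. Other pathway genes with replicates well apart had the opposite order. Tmem100, a BMP-responsive gene, had 181 and 299 normalized counts in the libraries labelled Osr1GCE/GCE, against 329 and 229 in Osr1controls. Bmper, a modulator, had 265 and 419 in the libraries labelled Osr1GCE/GCE, against 578 and 354 in Osr1controls.

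**Figure D4:**
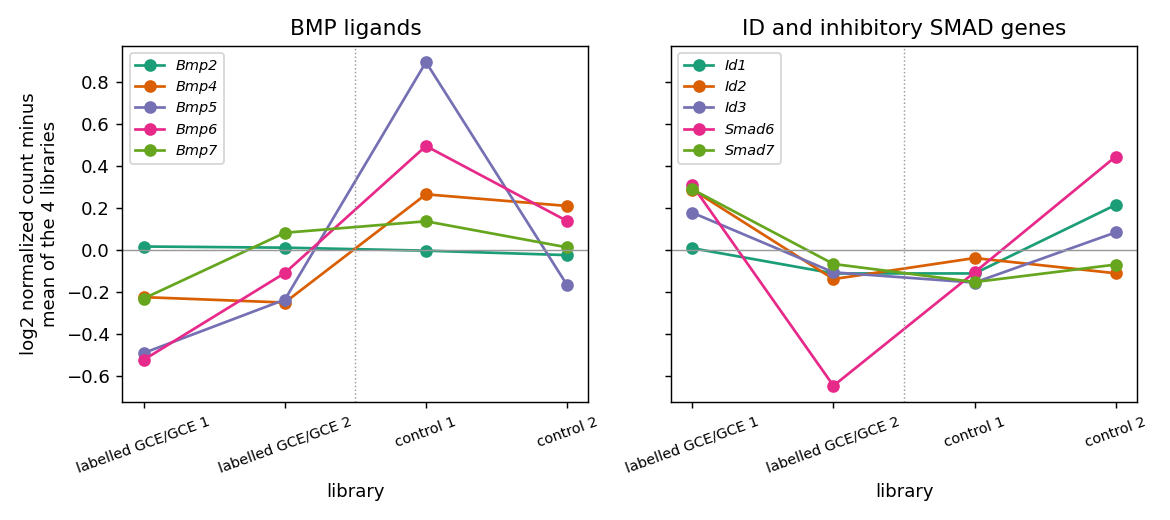
Log2 normalized count of each gene minus its mean over the 4 libraries, with libraries labelled Osr1GCE/GCE left of Osr1controls, for the ligands (left) and the targets (right). Lines join the values of 1 gene and imply no order of the libraries; the ligand panel shows Bmp5 high in 1 control and the target panel shows all 5 genes higher in replicate 1 than in replicate 2 labelled Osr1GCE/GCE.

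Transcripts that tissue dissociation is known to induce were also compared. The 7 early response genes summed to 3238 and 4034 TPM in the libraries labelled Osr1GCE/GCE, against 5104 and 5050 TPM in Osr1controls, and Jun was the 1 gene of them that was called, lower in the libraries labelled Osr1GCE/GCE. The targets did not follow this order, with 1614 and 1349 TPM in the libraries labelled Osr1GCE/GCE, against 1402 and 1671 TPM in Osr1controls.

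Further along the pathway, 48 of 52 other listed BMP pathway genes were tested, of which 1 was called higher and 4 lower in the libraries labelled Osr1GCE/GCE, and 43 were not called, against 1.13% and 1.75% of all genes tested. Of the 48, 4 had a mean TPM of 1 or less and could not be called under this rule. At the level of the receptors, Bmpr1a, which encodes the BMP type I receptor ALK3, had 2833 and 3127 normalized counts in the libraries labelled Osr1GCE/GCE, against 4578 and 4368 in Osr1controls (log2 fold change -0.59, adjusted p = 0.0329, limma). Rgma, a BMP co-receptor gene, had 773 and 797 in the libraries labelled Osr1GCE/GCE, against 1169 and 1331 in Osr1controls (-0.67, adjusted p = 0.0333, limma), and it overlaps the gene A730056A06Rik, so that its counts are uncertain. These 2 of the 10 receptors and co-receptors were called. The endothelial receptor genes Acvrl1 and Eng, named here for their role and with their values known, had log2 fold changes of -0.19 and -0.03 and were not called.

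Smad1, a receptor-activated transducer, was the 1 of 10 transducers and intracellular regulators that was called. Smad1 had 6153 and 6005 normalized counts in the libraries labelled Osr1GCE/GCE, against 4490 and 4088 in Osr1controls (log2 fold change 0.50, adjusted p = 0.0367, limma). Among 16 antagonists and modulators Chrd, which encodes the ligand trap chordin, fell, with 173 and 220 normalized counts in the libraries labelled Osr1GCE/GCE, against 380 and 338 in Osr1controls (-0.87, adjusted p = 0.0486, limma). Chrd overlaps Thpo and its counts are uncertain. Among 7 other BMP-responsive genes Msx1, a homeobox gene of BMP-exposed mesenchyme, fell, with 200 and 251 normalized counts in the libraries labelled Osr1GCE/GCE, against 512 and 409 in Osr1controls (-1.03, adjusted p = 0.0377, limma). None of the 5 tested genes of the 9 other ligands was called, of which 3, Bmp8a, Gdf5 and Gdf7, had a mean TPM of 1 or less and could not be. The smallest adjusted p-values were those of Bmp3 (log2 fold change -0.92, adjusted p = 0.146) and Gdf5 (-1.36, adjusted p = 0.156). The ligand genes Gdf2 (BMP9), made chiefly in liver, and Bmp10, made chiefly in heart, which signal to endothelium through ALK1 and are likewise named for that role, were below the filter, and Bmp10 had 0 reads in all 4 libraries.

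The 5 calls depended on the libraries and the fit. None of them was called with the replicate number as a block, or without limma's trend and robust options. Without replicate 1 labelled Osr1GCE/GCE none of them was called, and without replicate 2 labelled Osr1GCE/GCE Bmpr1a alone of the 5 was. Without control replicate 1 all but Chrd were called, and without control replicate 2 all 5 were. Bmpr1a, Rgma, Chrd and Msx1 were lower in the same libraries as the fibroblast and mural markers and Smad1 was higher in the same libraries as the LEC markers, and the part of cell makeup in these values was not tested. In the edgeR fit Bmpr1a, Rgma and Smad1 were called, and in the DESeq2 fit all 5.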

How the data were processed

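The authors prepared TruSeq V2 libraries, which carry no strand information, used STAR for alignment to mm10, featureCounts for gene counts and DESeq2 for normalization, in versions not given in the sources used here. Signal values deposited by the authors are DESeq2-normalized counts for 55385 gene IDs, of which 55144 were found in GENCODE mouse release M21, the source of symbols, positions and exon lengths for TPM. Each library's smallest step gave its size factor, and 100% of values were whole reads within 0.001 reads. The main test was limma 3.58.1 (lmFit, eBayes with trend and robust) in R 4.3.3. It took log2 of the normalized count with a pseudocount of 1, for genes averaging 10 or more. Fold changes are on this scale, which understates those of low genes. DESeq2 1.42.0 and edgeR 4.0.16 on recovered reads were alternatives. Fits were tested on simulated data first. Genes named were the 10 members, Osr1, every other BMP pathway gene called and, in a sublist with no call, the 2 with the smallest adjusted p, with exceptions stated. The members, gene lists and motifs were chosen with earlier results of these data known. Proteins were not analysed here.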

Additional observations from a re-analysis of the deposited data

How the results depend on the processing

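Of the 140 values that the 10 genes took under 14 alternatives each, 130 kept their direction and their side of the threshold. With library totals the log2 fold change of Bmp2 was -0.045 and that of Id3 -0.0010, against 0.03 and 0.07. Leaving out 1 library at a time gave ranges of -0.30 to 0.0074 for Bmp7, -0.27 to 0.060 for Id1, -0.064 to 0.36 for Id2, -0.071 to 0.21 for Id3 and -0.81 to 0.14 for Smad6. Calls among the 10 numbered 0, and 1 with DESeq2 (Bmp4), 1 at an adjusted p under 0.1 (Bmp4) and 0 to 1 with a library left out (Bmp5 without control replicate 2). Calls among other pathway genes numbered 5, against 3 with edgeR, 10 with DESeq2, 0 without limma's trend and robust options, 8 at an adjusted p under 0.1 and 0 to 8 with a library left out. Over all genes 562 were called, against 284 with edgeR, 1535 with DESeq2, 0 without trend and robust (3425 at an unadjusted p under 0.05), 1120 with no filter on low values, 1488 at an adjusted p under 0.1 and 25 to 1427 with a library left out, the lowest without replicate 1 labelled Osr1GCE/GCE and the highest without control replicate 2. Of the calls 60.7% were lower in the libraries labelled Osr1GCE/GCE, against 70.9% with library totals and 48.6% with edgeR. With the replicate number as a block 125 genes were called, with 0 of the 10 and 0 other pathway genes. Samples with the same number did not deviate together (r = -0.118). With 2 libraries a group the crossed pairing must give the same value with the opposite sign. This correlation therefore cannot decide whether the numbers pair the pools. A crossed pairing, added after seeing the data, called 1282 genes and 0 of the 10. The cause of these shifts was not tested. With 2 libraries a group, changes of the size of the replicate spread were not detectable.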
